A study of Mus musculus with 50 samples.

Results

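The genes described here encode tubulins, the motor proteins that move along microtubules, and the dynactin complex that works with one of those motors. They were chosen by name. Every array probe was taken whose platform symbol began with Kif, Klc, Dync, Dynl, Dctn, Tuba, Tubb or Tubg, with 1 dynactin gene left out of the rule. This gave 98 of the 20355 probes and 65 of the 9930 named genes. They were 13 alpha and beta tubulin genes, 4 genes of gamma tubulin and its complex, 30 kinesin genes, 13 dynein genes, 4 dynactin genes and Kifbp, which encodes a kinesin-binding protein and matched by its first letters. 1 of the kinesin entries, Kifc5c-ps, is annotated as a pseudogene. Kif5a and Tubb3 also served as neuronal markers.

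The wobbler mouse (wr/wr) is a recessive mutant with degeneration of motor neurons and a defect of sperm formation. Total RNA of wr/wr spinal cord or testis was hybridised on 2-colour arrays against a wild-type pool of the same organ, with the dyes swapped on an equal number of arrays of each RNA. The testis group held 10 wr/wr mice, each on 4 arrays. The spinal cord group held 3 wr/wr RNAs: pool1 and pool2, each of 4 mice on 4 arrays, and mouse 5995 alone on 2 arrays. All cord mice were among the testis mice. Each reference was a single pool of wild-type mice, given as 10 animals in the sample labels and as 6 in the labelling protocol. The labels used here give no age, sex or strain background. No probe on the array was annotated to Vps54, the gene mutated in wobbler, so the genotype was not checked.

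Values are log2 ratios, read as wr/wr over wild type. That reading is likely, but no label or header states it. If the ratios ran the other way, every sign would be reversed. A log2 ratio of 1 is a doubling. The arrays gave ratios and no intensities, so no gene's level can be compared with another's, and the presence of a tissue's defining markers could not be checked as a level. In these whole organs, fewer cells of a type and less RNA per cell cannot be told apart. Since 1 pool stood for the wild type, p-values leave out the spread among wild-type mice. Arrays of 1 dye shared more than arrays of 1 RNA, above all in cord. The median correlation (rho) in cord was 0.239 between arrays of different RNAs in the same dye. Between the dyes of the same cord RNA it was -0.0795. In testis these medians were 0.196 and 0.109. On this measure, cord ratios of the same RNA did not repeat across the dye swap. The value of each dye is therefore given for many results, but not for all. A cord value printed without its dyes may change sign between them.

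Microtubules are hollow polymers of alpha and beta tubulin, and gamma tubulin in its ring complex starts them. Most kinesins walk toward the plus end, which in an axon points to the tip. Cytoplasmic dynein, switched on by dynactin, walks toward the minus end and carries cargo back to the cell body. In testis the same parts build meiotic spindles, the manchette that shapes the sperm head, and the tracks in Sertoli cells along which spermatids move. Proteins of the GARP complex, to which Vps54 belongs, tether vesicles arriving at the Golgi.

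The promoters below are shown because 9 tubulin probes rose in testis, among them Tuba1a, Tuba1c and Tubb5 under all 18 alternatives run for single probes, and because Tubb4b lay lowest of the tubulins in cord. Each holds 300 bases around the RefSeq start, most of them before it, in the direction of transcription on GRCm38.p6. Tuba1a is at chr15:98953452-98953751 on the minus strand, and Tuba1c at chr15:99029641-99029940 on the plus strand. Tubb5 is at chr17:35838252-35838551 and Tubb4b at chr2:25224653-25224952, both on the minus strand. Capitals mark CCAAT (or ATTGG on the other strand), GGGCGG (or CCGCCC) and TATAAA (or TTTATA).
Tuba1a: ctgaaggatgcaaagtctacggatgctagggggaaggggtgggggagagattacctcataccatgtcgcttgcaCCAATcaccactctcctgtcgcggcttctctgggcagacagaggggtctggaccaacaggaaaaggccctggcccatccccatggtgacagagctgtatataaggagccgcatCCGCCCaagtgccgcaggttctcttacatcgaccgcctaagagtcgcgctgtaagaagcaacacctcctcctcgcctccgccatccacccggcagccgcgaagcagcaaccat
Tuba1c: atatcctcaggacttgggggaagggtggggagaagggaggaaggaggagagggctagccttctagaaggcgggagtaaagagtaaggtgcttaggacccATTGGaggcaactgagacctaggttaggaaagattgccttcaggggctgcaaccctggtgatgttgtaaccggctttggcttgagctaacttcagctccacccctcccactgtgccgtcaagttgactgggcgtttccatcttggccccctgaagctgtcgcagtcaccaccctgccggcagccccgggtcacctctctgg
Tubb5: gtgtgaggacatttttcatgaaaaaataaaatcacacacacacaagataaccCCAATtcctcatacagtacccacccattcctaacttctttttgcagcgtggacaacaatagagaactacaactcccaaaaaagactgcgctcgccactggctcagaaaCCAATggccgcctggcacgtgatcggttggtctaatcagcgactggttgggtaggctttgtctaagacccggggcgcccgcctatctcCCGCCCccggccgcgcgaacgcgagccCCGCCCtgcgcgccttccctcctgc
Tubb4b: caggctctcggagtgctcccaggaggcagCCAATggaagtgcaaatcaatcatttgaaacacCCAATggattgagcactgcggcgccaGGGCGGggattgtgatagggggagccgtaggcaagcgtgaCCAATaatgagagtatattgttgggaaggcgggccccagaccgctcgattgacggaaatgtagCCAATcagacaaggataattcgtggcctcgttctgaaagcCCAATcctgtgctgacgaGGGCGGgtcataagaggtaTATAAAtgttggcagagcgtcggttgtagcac
CCAAT or its complement stood once in the windows of Tuba1a and Tuba1c, 2 times in that of Tubb5 and 5 times in that of Tubb4b. Over all 32851 promoters of the RefSeq table, 37.4% held this motif, 35.7% held GGGCGG and 13.6% held TATAAA, on either strand. Of the 65 genes, 48 matched the table by symbol. GGGCGG stood in 62.5% of the 48 genes, against 38.2% of all genes of the table. CCAAT stood in 43.8% of them, against 41.1% of all genes. TGACGTCA, the letters of the cAMP response element, stood in 10.4% (5 genes), against 2.03% of all genes, and in none of the windows printed. A match to these letters is a description of sequence and was not tied to the ratios.

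In testis, alpha and beta tubulin mRNAs were higher in wr/wr mice. Of the 16 tubulin probes, 9 rose, 1 fell and 6 did not pass. Over all 98 probes, 15 rose and 5 fell. As background, 7.28% of the 20218 probes tested in testis rose and 5.06% fell (limma, adjusted p under 0.05 after Benjamini-Hochberg adjustment over all of them). The shares were 15.3% and 5.1% of all 98 probes, and 56.2% and 6.25% of the tubulin probes. The tubulin median was 0.18 on the log2 scale, against -0.01 over all probes and 0.04 over the 98. Taken within each mouse, the tubulin median ran from 0.04 to 0.33 and was above 0 in 10 of 10 mice. With the mutant RNA in Cy5 the median was 0.27, and in Cy3 it was 0.06.

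The ubiquitous alpha tubulins and the main beta tubulin of dividing and somatic cells had the highest tubulin means, which lay within the spread of one another. Tubb5 had a lowest, median and highest ratio of 0.07, 0.28 and 0.63 over the 10 mice. All 10 mice lay above 0, and the mean was 0.33 ± 0.17 (SD, n = 10), or 25.5% higher, with a limma adjusted p of 0.0113. Tuba1a, an alpha tubulin best known from growing neurons, ran from 0.05 through a median of 0.33 to 0.47, again with every mouse above 0. Its mean was 0.30 ± 0.16 (SD, n = 10; limma adjusted p = 0.0118). Tuba1b, a widely expressed alpha tubulin, ran from 0.13 through 0.30 to 0.45 with a mean of 0.29 ± 0.12 (SD, n = 10; limma adjusted p = 0.00679). The smallest adjusted p among the 98 probes belonged to Tuba1b. Its ratio was nevertheless 0.51 on the Cy5 arrays and 0.07 on the Cy3 arrays, and it did not pass on the Cy3 arrays alone (adjusted p = 0.422).

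Tuba1c had 2 probes. Probe 11952 ran from 0.01 through 0.25 to 0.56, above 0 in 10 of 10 mice, with a mean of 0.26 ± 0.14 (SD, n = 10; limma adjusted p = 0.0137). Probe 9022 ran from -0.12 through 0.17 to 0.42, with a mean of 0.18 ± 0.18 (SD, n = 10; limma adjusted p = 0.0562), and did not pass. Tuba1a, Tuba1c (probe 11952) and Tubb5 were called under all 18 alternatives run for single probes in testis. Tubulin mRNAs are very alike in sequence, so a cDNA probe can bind the transcripts of several genes, and the identity of the gene behind each tubulin ratio is uncertain.

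Tubb3, the neuronal beta tubulin, also rose in testis. Its ratios ran from -0.05 through a median of 0.28 to 0.57, with 9 of 10 mice above 0 and a mean of 0.26 ± 0.19 (SD, n = 10; limma adjusted p = 0.024). Tuba4a had a mean of 0.21 ± 0.14 (SD, n = 10; limma adjusted p = 0.0196) with 9 of 10 mice above 0. Tuba8 had a mean of 0.21 ± 0.14 (SD, n = 10; limma adjusted p = 0.0195) with 10 of 10 above 0. Tubb2a and Tubb2b, a pair of neighbouring and nearly identical beta tubulin genes, had means of 0.17 and 0.14, with adjusted p of 0.0232 and 0.0163. Tubb2b had the narrowest spread of the tubulins, from 0.08 to 0.27. On the Cy3 arrays alone the ratios were 0.02 for Tubb2a, 0.04 for Tubb2b and 0.10 for Tuba4a, and none passed. In Cy5 they were 0.32, 0.24 and 0.32 in the same order. Tubb3 (0.23) did not pass on the Cy3 arrays alone either. Tuba8 stood at 0.24 in Cy5 and 0.18 in Cy3, and passed on neither dye alone.

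Tubb4a, a beta tubulin of brain and myelinating cells, was the tubulin that fell. Probe 17773 ran from -0.43 through -0.17 to -0.01, below 0 in 10 of 10 mice, and its mean was -0.20 ± 0.15 (SD, n = 10; limma adjusted p = 0.0267). By dye, probe 17773 stood at -0.37 in Cy5 and -0.04 in Cy3, and it did not pass on the Cy3 arrays alone. The second Tubb4a probe, 17254, had a mean of -0.13 ± 0.15 and a limma adjusted p of 0.0981. The Tubb4b probes, of a beta tubulin found in cilia and sperm tails, had means of 0.11 and 0.15, and neither passed (adjusted p = 0.0966 and 0.0715). Tuba3b, of a testis-enriched alpha tubulin group, had a mean of 0.10 (adjusted p = 0.183), and Tubb6 a mean of -0.04 (adjusted p = 0.66).

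**Figure D1:**
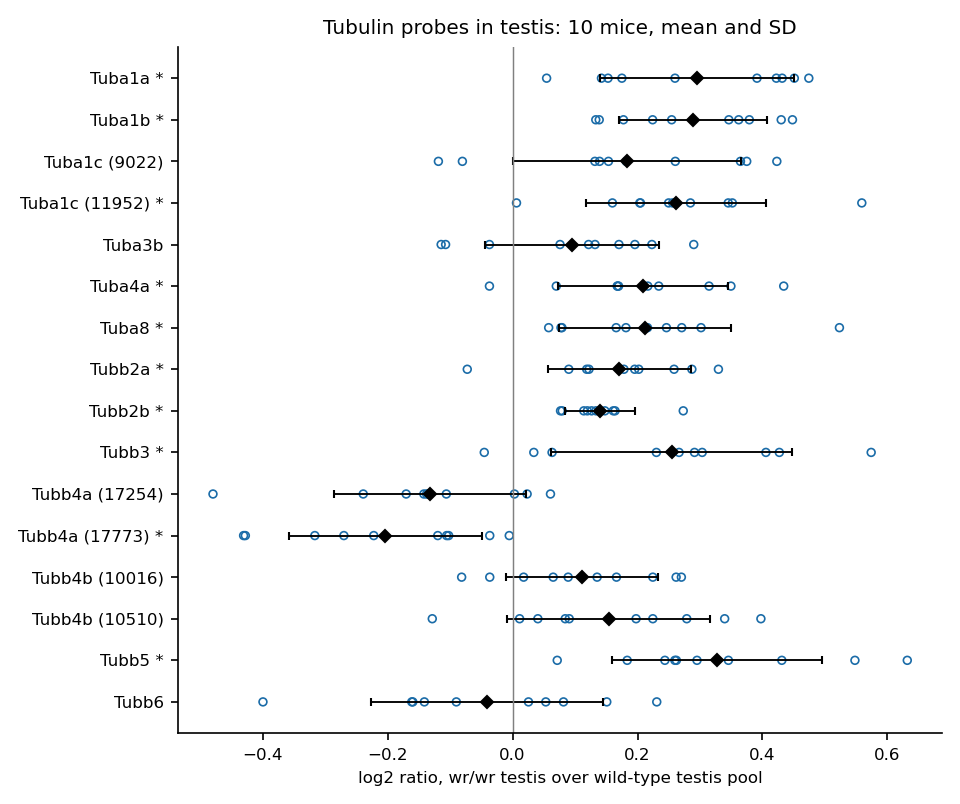
Log2 ratio of wr/wr over wild-type testis for the 16 alpha and beta tubulin probes; circles are the 10 mice, diamonds and bars the mean ± SD, and an asterisk marks a limma adjusted p under 0.05. Of the probes, 9 lie to the right with an asterisk, and Tubb4a (17773) is the asterisked probe on the left.

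Of the 5 probes of gamma tubulin and its ring complex, none passed in testis. Tubg1, the main gamma tubulin, had a mean of 0.13 (limma adjusted p = 0.0986), and Tubg2 a mean of -0.14 (adjusted p = 0.0672). The ring proteins Tubgcp2 and Tubgcp3 lay between -0.03 and 0.13.

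Subunits of dynein and dynactin rose in testis where they changed. Of 29 probes, 6 rose and none fell (20.7%, against the 7.28% background), and the median was 0.06. Dynll2 encodes a light chain that dynein shares with other complexes. Its probe 11378 ran from -0.09 through 0.40 to 0.69, with 8 of 10 mice above 0 and a mean of 0.32 ± 0.24 (SD, n = 10; limma adjusted p = 0.0224). By dye, probe 11378 stood at 0.55 in Cy5 and 0.08 in Cy3, and it did not pass on the Cy3 arrays alone. The other 4 Dynll2 probes had means from -0.17 to 0.06 and did not pass, so the probes of this gene disagree. Dynll1, the close relative of Dynll2, ran from -0.07 through 0.19 to 0.43, with 9 of 10 mice above 0. Its mean was 0.21 ± 0.16 (SD, n = 10, limma adjusted p = 0.0273). It stood at 0.38 in Cy5 and 0.04 in Cy3, and did not pass on the Cy3 arrays alone.

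Dync1i2 encodes the widely expressed intermediate chain, to which dynactin binds. It ran from 0.02 through 0.21 to 0.30, above 0 in 10 of 10 mice, with a mean of 0.20 ± 0.10 (SD, n = 10, limma adjusted p = 0.0147). Dync1i2 did not pass on the Cy5 arrays alone. Dync1li2, a light intermediate chain that links dynein to cargo adaptors, ran from 0.03 through 0.23 to 0.47 at probe 11722. Its mean was 0.22 ± 0.12 (SD, n = 10, limma adjusted p = 0.0152). Probe 11722 did not pass on the Cy3 arrays alone. The second Dync1li2 probe, 9188, had a mean of -0.01 (limma adjusted p = 0.874). Dync1li1 had a mean of 0.16 with an adjusted p of 0.121. The force-producing heavy chain Dync1h1 had means of 0.02 and 0.05 at its 2 probes, with adjusted p of 0.817 and 0.327. Dync1i1, the intermediate chain abundant in neurons, had a mean of 0.18 ± 0.35 (SD, n = 10), of which mouse 5906 alone stood at 1.02.

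Among dynactin subunits, Dctn2 and Dctn6 rose. Dctn2 encodes dynamitin, which joins the dynactin shoulder to its filament. Its probe 12261 ran from 0.04 through 0.13 to 0.25, above 0 in 10 of 10 mice, with a mean of 0.13 ± 0.07 (SD, n = 10, limma adjusted p = 0.0202). By dye, probe 12261 stood at 0.17 in Cy5 and 0.10 in Cy3, and it passed on neither dye alone. Probe 19616 of the same gene had a mean of -0.04 ± 0.18 (adjusted p = 0.652). Dctn6, a subunit of the pointed-end cap of the filament, ran from 0.01 through 0.12 to 0.38, above 0 in 10 of 10 mice, with a limma adjusted p of 0.0343. Dctn6 did not pass on the Cy5 arrays alone, and it was called under 11 of the 18 alternatives. Dctn3 (mean 0.02) and the 3 probes of Dctn4 (means 0.02, 0.09 and 0.12) did not pass. Dync2h1 and Dync2li1 belong to dynein-2, which returns cargo inside cilia. Their 3 probes had means of 0.10, 0.05 and 0.10 and did not pass. The light chains Dynlrb1, Dynlrb2, Dynlt1b and Dynlt3 had means between -0.10 and 0.15 and did not pass either.

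No kinesin passed as higher in testis on the averaged ratios. Of 47 kinesin probes, 4 fell and none rose (8.51% and 0%, against 5.06% and 7.28% of all probes), and the median was -0.04. Kif1a, a carrier of synaptic vesicle precursors, ran at probe 17667 from -0.48 through -0.22 to 0.04, with 1 of 10 mice above 0. Its mean was -0.20 ± 0.16 (SD, n = 10; limma adjusted p = 0.029). By dye, probe 17667 stood at -0.32 in Cy5 and -0.08 in Cy3, and it did not pass on the Cy3 arrays alone. Probe 17653 of Kif1a had a mean of -0.09 (limma adjusted p = 0.47). Kif1b, a relative that moves mitochondria and vesicles, ran from -0.44 through -0.16 to 0.02, with a mean of -0.17 ± 0.13 (SD, n = 10; limma adjusted p = 0.0327). Kif1b stood at -0.25 in Cy5 and -0.09 in Cy3, and passed on neither dye alone. Across the 9 probes of this kinesin-3 family, which also holds Kif1c, Kif13a, Kif13b and Kif16b, the median was below 0 in each of the 10 mice.

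None of the 10 kinesin-1 probes passed in testis, and their median was -0.02. Kif5a, the neuronal heavy chain, ran at probe 16320 from -0.28 through 0.07 to 0.72, the highest being mouse 6065, and its mean was 0.07 ± 0.27 (SD, n = 10; limma adjusted p = 0.59). At probe 19259 its mean was -0.06 ± 0.11 (SD, n = 10; limma adjusted p = 0.341). Of the 13 probes of mitotic kinesins (Kif2a, Kif2b, Kif2c, Kif18b, Kif20a, Kif20b, Kif22 and Kif23), which work in the dividing spindle, Kif20b alone passed. Kif3b, Kif4, Kif9, Kif12, Kif21a, Kif27 and Kifc3 had means between -0.11 and 0.12, and none passed; Kifbp stood at 0.07.

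The remaining kinesin calls were marginal. Kifc5c-ps had a mean of -0.16 (limma adjusted p = 0.044) and passed on neither dye alone. Kif20b, a kinesin of cell division, had a mean of -0.12 (limma adjusted p = 0.0496), with -0.28 in Cy5 and 0.04 in Cy3, so its direction turned with the dye. The other 19 probes called in testis kept 1 sign in both dyes. Kif2c, a mitotic kinesin that takes microtubules apart, had a mean of 0.19 (adjusted p = 0.0559), and Kif17, a motor of cilia and dendrites, had one of -0.17 (adjusted p = 0.0797). Kif22 had means of -0.21 and -0.11 at its 2 probes, and neither passed. Kifc2 had the lowest mean of the 98, -1.16 ± 1.67 (SD, n = 9), which mouse 5907 at -5.34 drew down through 1 array value over 10 in size (adjusted p = 0.148). Values of that size presumably have 1 dye at its floor, which was not tested.

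Without mouse 6493 the count in testis was 9 probes, all higher, without mouse 6069 it was 11, and without mouse 5907 or mouse 6335 it was 13. The lower calls numbered 0, 0, 0 and 1 in those 4 fits, against 5 with all mice. On the Cy3 arrays alone 6 probes were called, 5 higher and 1 lower.

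**Figure D2:**
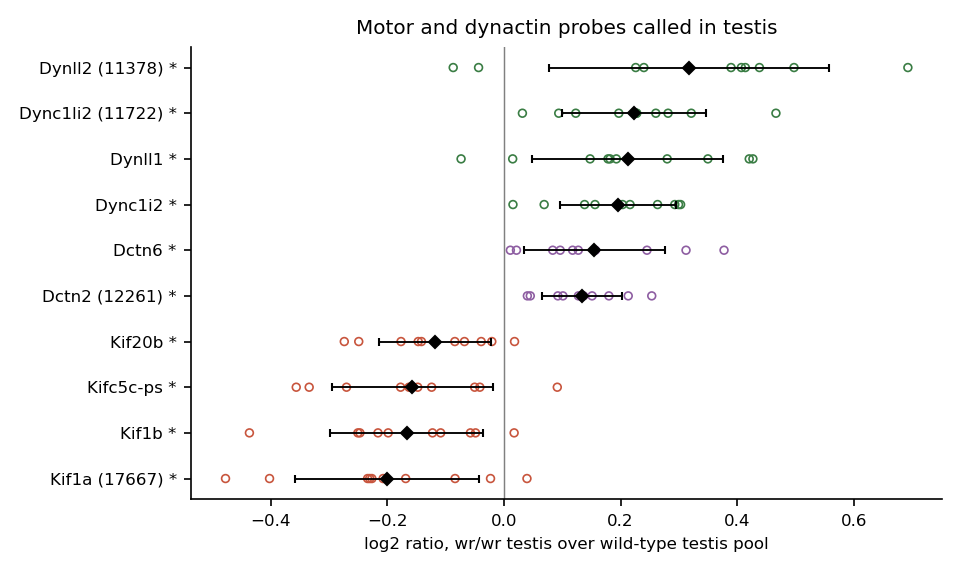
Log2 ratio of wr/wr over wild-type testis for the 10 dynein, dynactin and kinesin probes called in testis; circles are the 10 mice, and diamonds and bars the mean ± SD. The 6 dynein and dynactin probes lie above 0 and the 4 kinesin probes below it.

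Marker genes of testis cell types moved in the same animals. As background, 7.28% of all probes tested in testis rose and 5.06% fell. Of 5 Sertoli cell probes 4 rose (median 0.39). The 2 spermatocyte probes, Ldhc and Pttg1, both rose (median 0.27), and both were below 0 in all 3 cord RNAs (cord median -0.52). Of 8 round spermatid probes none rose and 1 fell (median 0.05), and neither of 2 spermatogonia probes passed (median -0.39). Of 6 Leydig cell probes 3 fell (median -0.21), while none of 11 elongating spermatid probes passed. Of 4 probes of dividing cells 1 rose (median 0.14). The part of these shifts in the tubulin and motor ratios was not tested.

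The other genes of the microtubule pathway rose or fell in small numbers in testis, where 7.28% of all probes rose and 5.06% fell. Of 10 probes of tubulin folding cofactors, 3 rose and none fell: Tbca (0.25), which holds beta tubulin, and both probes of Tbcb (0.23 and 0.22), which holds alpha tubulin. Of 28 probes of structural microtubule-associated proteins, 3 rose and 2 fell. Map4, the main such protein outside neurons, fell at 2 of its 4 probes (-0.39 and -0.36), while the other 2 lay above 0 and did not pass (0.16 and 0.05). Map1lc3b, better known for its part in autophagy, rose at 2 (0.32 and 0.29). Of 19 spindle probes 4 rose (Bub1b, Cdc20, Prc1 and Racgap1) and 1 fell (Numa1, -0.17). The second probes of Racgap1 (-0.03) and Numa1 (0.02) did not pass. The 13 plus-end probes gave 1 higher and 2 lower, the 30 probes of dynein regulators and adaptors 1 and 2, and the 18 of tubulin modification and severing 1 and 1. None of the 16 axonemal dynein probes passed.

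In spinal cord no member passed the test, and no probe of the array did. The cord fit tested 17055 probes, of which 0% were called at an adjusted p under 0.05 by limma. The smallest adjusted p, among members and over all probes, was 0.542. At an unadjusted p under 0.05 stood 1476 probes, 17 of them among the 90 member probes tested in cord. Of the 17, 3 lay above 0 (3.33% of the 90, against 4.29% of all probes) and 14 below (15.6%, against 4.36%). By dye, only 9 of the 14 were below 0 in both, while the 3 were above 0 in both.

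The cord ratios of these genes lay mostly below 0 in the mutant, but this depended on the dye. Of the 90 probes, 37 were below 0 in all 3 RNAs (41.1%, against 20.7% of all probes) and 14 above 0 in all 3 (15.6%, against 18.5%). The median was -0.115 on the log2 scale (-0.08 in pool1, -0.14 in pool2 and -0.14 in mouse 5995), against 0.00 over all probes. With the mutant RNA in Cy5 the median was 0.03, with 41 of 90 probes below 0. In Cy3 it was -0.22, with 62 of 90 below 0. Of the 37 probes, 22 had both dye means below 0, and of the 14 probes, 10 had both above.

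**Figure D3:**
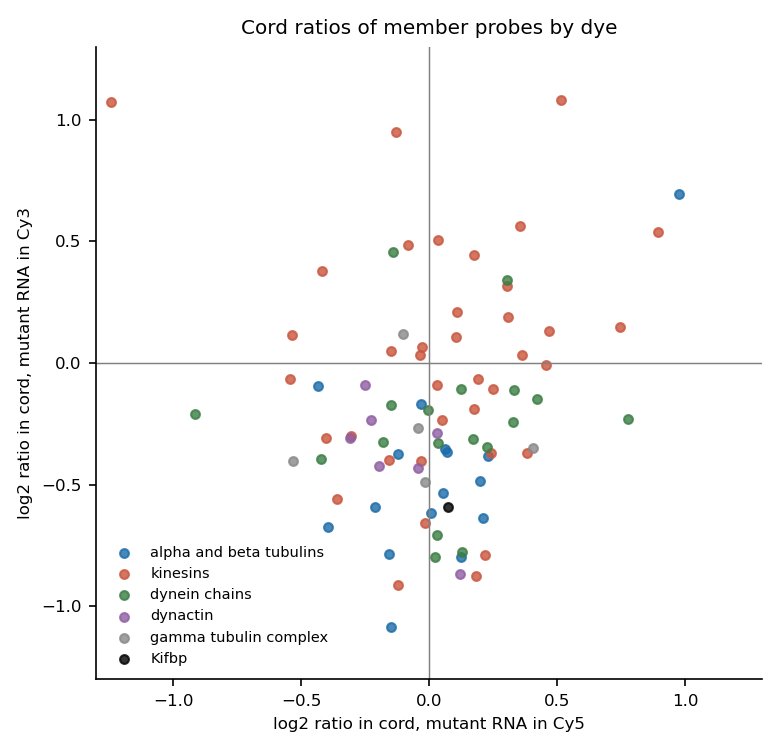
Cord log2 ratio of member probes with the mutant RNA in Cy3 (vertical) against Cy5 (horizontal), 1 point per probe, means over the 3 RNAs. Of 90 probes 85 are drawn and 5 lie outside the axes; the tubulins spread around 0 along the Cy5 axis and lie low on the Cy3 axis, except 1.

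Tubulins in cord were low on the averaged ratio and split by dye. Of 16 probes, 13 were below 0 in all 3 RNAs (81.2%, against 20.7% of all probes) and 1 above (6.25%, against 18.5%). The tubulin median was -0.24. The Cy5 arrays had a median of 0.03 and the Cy3 arrays one of -0.51, and 9 probes lay above 0 in Cy5 against 1 in Cy3. Tubb4b stood lowest. Probe 10016 gave -0.75 in pool1, -0.74 in pool2 and -0.36 in mouse 5995, with a mean of -0.62 ± 0.22 (SD, n = 3; limma adjusted p = 0.542). Probe 10510 gave -0.45, -0.45 and -0.72 in the same order. Both were below 0 in both dyes, at -0.15 and -1.09 for probe 10016 and at -0.40 and -0.67 for probe 10510 (Cy5 and Cy3).

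Tubb6, a beta tubulin found widely outside the nervous system, lay on the other side of 0. It gave 0.77 in pool1, 1.0 in pool2 and 0.74 in mouse 5995, or 78.5% higher on average. Its mean of 0.84 ± 0.14 (SD, n = 3) came with 0.98 in Cy5 and 0.69 in Cy3, and did not pass (limma adjusted p = 0.542). Tubb4a gave -0.33, -0.27 and -0.81 at probe 17254 and -0.27, -0.23 and -0.70 at probe 17773, in the order pool1, pool2 and mouse 5995. Tubb3 gave -0.20, -0.16 and -0.38 in that order, with -0.12 in Cy5 and -0.38 in Cy3. For Tuba1b the mean was -0.21, but the Cy5 arrays gave 0.21 and the Cy3 arrays -0.64. Tubb5 was nearest to 0 of the tubulins, at 0.02, -0.18 and -0.07. In the gamma tubulin complex, Tubg1 had a mean of -0.25 and Tubgcp2 means of -0.47 and -0.16, while Tubg2 and Tubgcp3 lay at 0.03 and 0.01.

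Kinesin-1, the motor of fast axonal transport toward the nerve ending, had 9 probes in cord. Of these, 6 were below 0 in all 3 RNAs and 1 above, against 20.7% and 18.5% of all probes. The median of kinesin-1 was -0.30 (-0.12 in Cy5 and -0.31 in Cy3). Kif5a is its neuronal heavy chain. Probe 19259 gave -0.63 in pool1, -0.50 in pool2 and -0.42 in mouse 5995, a mean of -0.52 ± 0.11 (SD, n = 3; limma adjusted p = 0.542). Probe 16320 gave -0.39, -0.35 and -0.30. The first probe was below 0 in both dyes (-0.12 and -0.91), while the second was above 0 in Cy5 (0.18) and below in Cy3 (-0.88).

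Kif5b, the ubiquitous heavy chain, gave -0.31, -0.31 and -0.46, and was alike in both dyes (-0.40 in Cy5 and -0.31 in Cy3). Klc1, a light chain that picks up cargo, gave -0.55, -0.47 and -0.36 at probe 16285 (-0.36 and -0.56 by dye), while its probe 18376 had a mean of 0.01. Klc4 gave -0.17, -0.28 and -0.47, again alike in both dyes. Klc3, a light chain of spermatids, gave 0.34, 0.86 and 0.15. The Kif5c probes, of the second neuronal heavy chain, had means of -0.09 and -0.21.

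The 32 probes of the other kinesins had a cord median of 0.07 (0.14 on the Cy5 arrays and 0.09 on the Cy3 arrays). Of them, 4 were below 0 in all 3 RNAs and 9 above, against 20.7% and 18.5% of all probes. Kif22, a chromosome-bound mitotic motor, gave 0.30, 0.76 and 1.09 at probe 4457 and 0.24, 0.16 and 0.53 at probe 8993. Kif27, a kinesin of cilia, gave 0.61, 0.78 and 1.0 at probe 12532 and 0.14, 0.38 and 0.86 at probe 11730. Its probe 8767 had a mean of -0.30, and probe 15123 had one of -3.45 that rests on 2 values at the presumed floor. Kif2b (probe 8673) had a mean of 3.0 for the same reason, with 1 such value in mouse 5995. The Kif1a probes gave means of -0.28 and -0.28, Kif1b one of -0.07, and Kif1c means of -0.34 and 0.20. Kif1a stood at 0.22 in Cy5 and -0.79 in Cy3 at probe 17653, and at -0.16 and -0.40 at probe 17667. Kif1b stood at 0.24 in Cy5 and -0.37 in Cy3. Kif3b, a subunit of the kinesin-2 that builds cilia, had means of 0.22 and 0.30, and Kif2a, which trims axon branches, one of 0.10. Kif9 gave 0.13, -0.42 and -1.69, a wide spread, with -1.53 in Cy5 and 0.21 in Cy3. The mitotic kinesins had 10 probes tested in cord, of which 4 were above 0 in all 3 RNAs and none below, with a median of 0.13 against 0.00 over all probes.

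Of 27 dynein and dynactin probes in cord, 11 were below 0 in all 3 RNAs (40.7%, against 20.7% of all probes). Above 0 in all 3 were 3 (11.1%, against 18.5%). The median was -0.15 (Cy5 arrays 0.02, Cy3 arrays -0.24). Dync1li2 at probe 11722 gave -0.36, -0.45 and -0.88, below 0 in both dyes, and its probe 9188 had a mean of -0.10. Dynll2 at probe 16240 gave -0.34, -0.48 and -0.41, with -0.42 in Cy5 and -0.40 in Cy3. The other 4 Dynll2 probes did not share this: their cord means were 0.16 (10452), -0.06 (11378), 0.73 (13942) and -0.15 (17597). Probe 13942 gave 1.35, -0.35 and 1.17, with -1.02 in Cy5 and 2.47 in Cy3. Dctn3 gave -0.34, -0.44 and -0.34, but 0.12 in Cy5 and -0.87 in Cy3. Dctn4 at probe 10860 gave -0.33, -0.18 and -0.42, with -0.31 in each dye, and its other probes had means of -0.17 and -0.13. Dctn2 had means of -0.24 and -0.31, and Dctn6 one of -0.23.

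The heavy chain Dync1h1 had a mean of -0.33 at probe 11054 and of 0.11 at probe 8119, the former at 0.13 in Cy5 and -0.78 in Cy3. Dynll1 had a mean of -0.39, with 0.02 in Cy5 and -0.80 in Cy3. Dync1i2 gave 0.00, 0.20 and 1.74, with a mean of 0.65 that mouse 5995 drew up. By dye it stood at -0.55 in Cy5 and 1.85 in Cy3, so its direction turned with the dye. The dynein-2 probes lay above 0 on average, at 0.01 for Dync2h1 and 0.27 and 0.32 for Dync2li1. By dye, Dync2li1 stood at 0.78 in Cy5 and -0.23 in Cy3 at probe 1066, and at 0.30 and 0.34 at probe 17495. Dynlrb1, a light chain of the roadblock family, had a mean of -0.34, and Dync1i1 and Dynlrb2 were among the 8 probes not tested in cord.

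**Figure D4:**
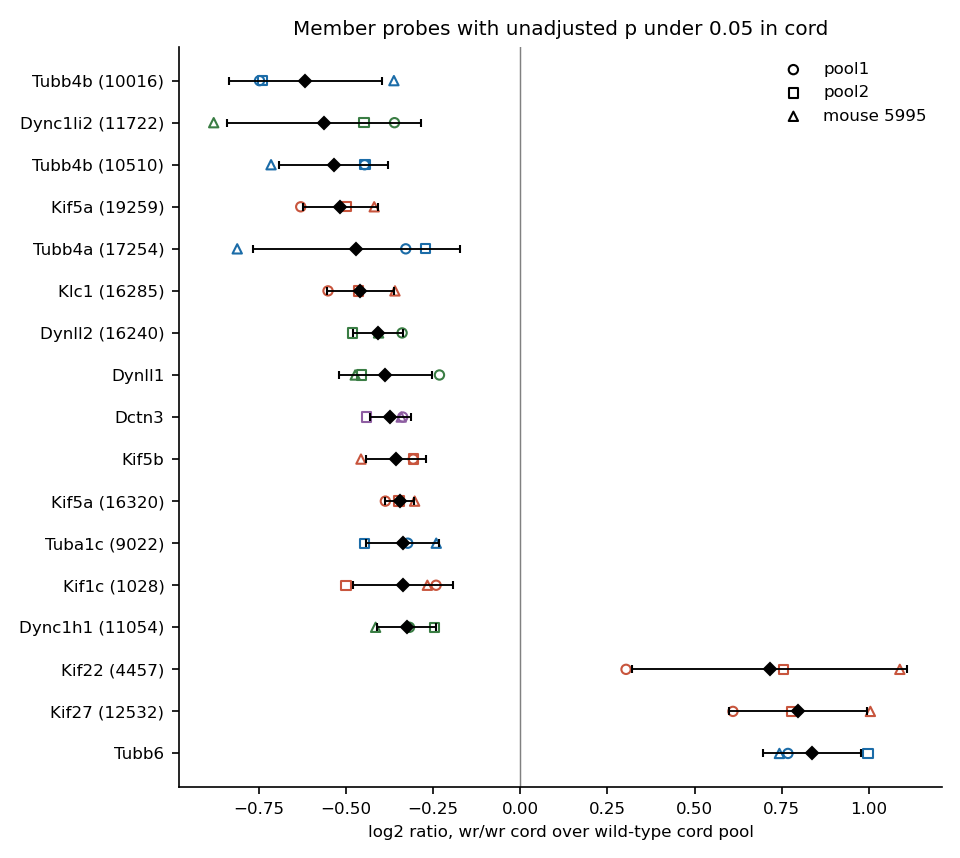
Log2 ratio of wr/wr over wild-type cord for the 17 member probes with an unadjusted p under 0.05; open symbols are pool1, pool2 and mouse 5995, and diamonds and bars the mean ± SD over these 3 RNAs. No probe passed after adjustment. Of the probes, 14 lie below 0, 9 of them in both dyes, and Kif22, Kif27 and Tubb6 lie above.

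Cell type markers of the cord also moved on the averaged ratio, with no probe passing. As background, 20.7% of all probes were below 0 in all 3 RNAs and 18.5% above. Of 13 neuronal probes other than Kif5a and Tubb3, 8 were below 0 in all 3 RNAs and 1 above, with a median of -0.20. Of 6 oligodendrocyte probes 5 were below 0 in all 3 (median -0.49), of 8 microglia and macrophage probes 7 were above in all 3 (median 0.62), and of 10 astrocyte probes 6 were above (median 0.31). The part of these shifts in the ratios of tubulins and motors was not tested. Among the structural microtubule-associated proteins, 13 of 29 probes were below 0 in all 3 RNAs and 3 above (median -0.16).

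The ratios in testis and cord pointed apart for the tubulins. Of the 15 probes that rose in testis, 11 were below 0 in all 3 cord RNAs. The share below 0 in all 3 was 20.7% over all probes and 41.1% over the member probes tested in cord. In 7 probes every testis lay above 0 and every cord RNA below: Tuba1a, Tuba1b, Tuba1c (11952), Tubb2b, Dctn2 (12261), Dctn6 and Dync1li2 (11722). This holds for the mean of the dyes: with the mutant RNA in Cy5 the cord mean was above 0 for 3 of the 7, at 0.21 for Tuba1b, 0.07 for Tuba1c and 0.20 for Tubb2b. In Cy3 it was below 0 for all 7. How many of all probes on the array lie on opposite sides in this way was not counted. With 1 spread pooled over the 13 RNAs, the testis ratio minus the cord ratio passed in 41 of 90 probes (limma, adjusted p under 0.05), 34 higher in testis and 7 lower. Those are 37.8% and 7.78%, against a background of 10.8% and 10.4% of 17005 probes. Of the 16 tubulin probes 13 were higher and 1 lower. On the Cy5 arrays alone 7 of the 90 passed, 4 higher and 3 lower, and on the Cy3 arrays alone 41, 34 higher and 7 lower.

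These calls did not hold under fits that treat the tissues differently. On simulated data, most calls of the pooled fit and of the fit with each tissue's own spread had no true shift. With each tissue's own spread, limma called 0 of the 90 probes. At an unadjusted p under 0.05 stood 30 members, against 2693 of all 17005 probes. In that fit 0.0176% of all probes were called higher and 0.0294% lower. With the mice as a block, which pairs a cord RNA and the testes from the same animals, 0 members were called. At an unadjusted p under 0.05 stood 22 members, against 2152 of all 16983 probes. This paired fit called 0 of all probes, so its 0 cannot tell the members from the rest of the array. For Tubb4b (probe 10016) the difference was 0.73 with a standard error of 0.10 (adjusted p = 0.00141), and with its own spread per tissue the standard error was 0.17 (adjusted p = 0.114). For Tuba1b the difference was 0.50, with adjusted p of 0.00325 and 0.18. For Kif5a (probe 19259) it was 0.46, with adjusted p of 0.00377 and 0.184. Tubb6 differed the other way, by -0.88, with adjusted p of 0.00123 and 0.135.

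**Figure D5:**
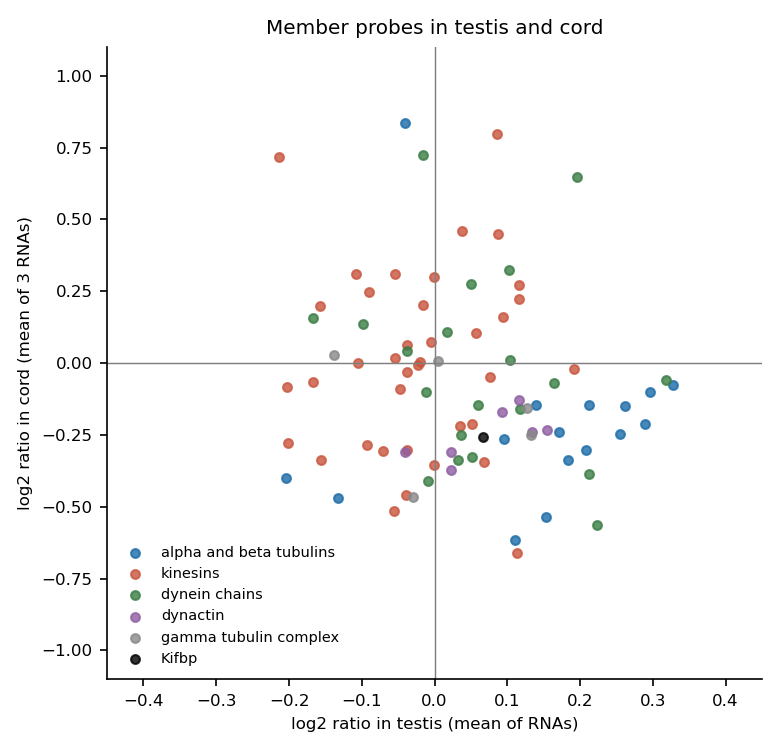
Mean cord log2 ratio (vertical) against mean testis log2 ratio (horizontal) of member probes, coloured by family. Of 90 probes 87 are drawn and 3 lie outside the axes; 13 of the 16 tubulin probes lie above 0 in testis, all 13 of them below 0 in cord, and Tubb6 lies highest in cord.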

How the data were processed

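RNA of wr/wr spinal cord and testis was measured against wild-type pools on 50 2-colour arrays. The values are the authors' deposited table of log2 ratios, 1 per probe and array; the background correction, normalization and filters behind them, and a genome build, were not given in the sources used. Per the labels, 20 µg of RNA were reverse transcribed and labelled indirectly. Each array held 18338 to 20189 values. Array medians of the deposited log2 values lay between -0.091 and 0.058, and their median absolute deviation had a median of 0.259 in testis and 0.521 in cord. Intensities were not used here. Precision is limited by the number of RNAs, 10 in testis and 3 in cord, and by the single wild-type pool of each organ.

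Each array was centred on its median. Arrays of 1 dye were averaged per RNA, and the Cy5 and Cy3 means were averaged again, so that the arrays of 1 RNA count as 1 replicate. For the test against 0, limma 3.58.1 (R 4.3.3; lmFit and eBayes) was run over all probes with both dyes in at least 8 of 10 testes (20218) or all 3 cord RNAs (17055), with Benjamini-Hochberg adjustment at 0.05. Testis minus cord was fitted over 13 RNAs with 1 pooled spread. Tested on simulated data, that tissue fit called probes with no true shift, so a fit with each tissue's own spread was added after seeing the data. Of the 747 calls of the pooled fit, 621 had no true shift. On the same simulated data 161 of the 237 calls of the added fit had none, so most calls of either fit were false there. Log2 shifts of 0.5 were recovered at 46% by the pooled fit and 12% by the added fit. For shifts of 1 these were 80% and 64%. Simulated cord data of this size gave no calls for the shifts tried.

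The cord RNAs come from mice that also gave testes, so each cord RNA was paired with its mice's testes. Their deviations from the tissue means correlated at -0.00655 (pool1), -0.00359 (pool2) and 0.00616 (mouse 5995) across probes. No arrays were duplicates: at most 0.25% of values were identical between 2 arrays. The lowest correlation between arrays of other RNAs in the same dye was -0.0397 in testis and -0.00414 in cord, and no sign was turned. These same-dye values cannot show whether the sign holds across the dye swap. Between the dyes of the same RNA the median correlation (rho) was 0.109 in testis and -0.0795 in cord.

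Gene names came from the platform annotation: 14030 probes had 1 symbol, 5 several and 6320 none. All 98 member probes matched RefSeq by Entrez ID and symbol. The members, gene lists and tests were chosen with earlier results of these data known. Named members were every called member, the 8 highest and 8 lowest probes per tissue, fixed motor and tubulin genes, and genes whose probes differed in sign or call. Promoter sequences are from RefSeq on GRCm38.p6. Alternatives were no centring, centring on shared probes, each dye alone, floored values missing, other filters, probes averaged per gene, robust eBayes, a fit over arrays, and leaving out each RNA.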

Additional observations from a re-analysis of the deposited data

Results flagged for a closer look

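In 19 of the 98 member probes, 1 testis stood apart from the other mice by Dixon's gap test; chance alone flags about 1 in 20 groups. Mouse 6065 stood apart in 8 of them, with log2 ratios of 0.52 for Tuba8 (probe 3486), 0.27 for Tubb2b (probe 17274), 0.72 for Kif5a (probe 16320), 0.93 for Kif5c (probe 10041), 0.56 for Kif21a (probe 18718), -0.31 for Kif20a (probe 3712), -0.52 for Kif22 (probe 8993) and -2.14 for Kif2b (probe 14363). Mouse 5907 stood apart in 3 of them, with log2 ratios of -5.34 for Kifc2 (probe 18963), -0.61 for Dynlt1b (probe 12481) and -0.82 for Kif22 (probe 4457). Mouse 6069 stood apart in 3 of them, with log2 ratios of -1.37 for Dynll2 (probe 10452), -0.76 for Kif13a (probe 2285) and -1.01 for Kif20a (probe 883). Mouse 5995 stood apart in 3 of them, with log2 ratios of 0.90 for Dynll2 (probe 13942), -0.61 for Kif17 (probe 12208) and 0.21 for Kif1c (probe 1028). Mouse 5997 stood apart once, at -0.37 for Dctn3 (probe 14851). Mouse 5906 stood apart once, at 1.02 for Dync1i1 (probe 17850). Of these probes, Tuba8 and Tubb2b are called in testis; without mouse 6065, 19 members were called.

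In 7 probes every testis ratio lay above 0 and every cord ratio, averaged over the dyes, below it. How many of all probes on the array do so was not counted. With the mutant RNA in Cy5 the cord mean was above 0 for 3 of the 7 (Tuba1b, Tuba1c and Tubb2b). The testis mean minus the cord mean was 0.40 for Tuba1a (probe 16710), 0.50 for Tuba1b (probe 6534), 0.41 for Tuba1c (probe 11952), 0.28 for Tubb2b (probe 17274), 0.37 for Dctn2 (probe 12261), 0.39 for Dctn6 (probe 17027) and 0.79 for Dync1li2 (probe 11722) on the log2 scale. The difference passed in the fit with 1 pooled spread. Because the 7 were picked by these same ratios, that pass adds no support for them. In none of the 7 did the difference pass with each tissue's own spread, or with the cord RNAs paired with the testes of their mice. The paired fit called no probe of the array.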

How the results depend on the processing

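On the averaged ratios, 20 members were called in testis. Counts moved by over 1.5 times with the mutant RNA in Cy3 only (6 called) and in the fit over arrays with a dye term and the RNA as a random block (39 called, amid 4590 probes or 22.7% of all); leaving out 1 mouse at a time gave 9 to 22. With no centring, other filters, floored values missing, robust eBayes, probes averaged per gene, Cy5 only, or without mice 5905, 5997 and 6065 together, the count stayed between 17 and 24, and the testis median kept its direction under every alternative run for it. Kif20b reversed to 0.0412 in Cy3 only (adjusted p = 0.727). In cord, no alternative on averaged ratios called a member; the array fit called 7 (Kif22, Tubb4b at 2 probes, Dynll2, Klc1, Kif5a and Tubb6, amid 2.12% of all probes), but treats arrays of 1 RNA as nearly independent (consensus correlation 0.0386). The cord median of -0.115 became 0.0302 in Cy5 only and -0.2188 in Cy3 only. The tissue difference, called in 41 members, gave 7 in Cy5 only and 28 to 45 leaving out 1 RNA at a time. The 28 came without the cord of mouse 5995. The replicate block by mouse called 0 members and 0 of all 16983 probes. The fit with each tissue's own spread called 0 members and 8 of all 17005 probes. The causes were not tested. Signal over background is not analysed here, so faint probes could not be told from bright ones.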
